A study of Danio rerio with 6 samples.

Results

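The 3 genes described here are the clock repressor genes per1a (ENSDARG00000056885), per2 (ENSDARG00000034503) and cry1a (ENSDARG00000045768). They were chosen by ID from the 32105 genes of 1 table of expression levels in zebrafish. All the fish were adults, 0.5 to 1.5 years old, of the Tg(aanat2:EGFP) line, in which control regions of the melatonin gene aanat2 make the pineal gland fluorescent, and were kept in cycles of 12 h light and 12 h dark. Poly-A RNA came from pineal glands at night and by day, whole eyes at night and by day, and mixed tissue at night and by day. Night was mid-night (ZT18, 18 h after lights on) and day was mid-day (ZT6). Each of the 6 groups was 1 library, made from a pool of 18 pineal glands, of 6 eyes, or of equal RNA from muscle, ovary, kidney, gill, liver, intestine, heart and brain (4 to 8 of each organ). No tissue was sampled more than once at a time point, so differences within a tissue have no replicate check.

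The circadian clock of vertebrates is a loop in which CLOCK and BMAL1 proteins switch on the period (per) and cryptochrome (cry) genes, whose products then block CLOCK and BMAL1. In zebrafish per1a is known as a gene driven mainly by this loop. The genes per2 and cry1a are known to be switched on by light as well, and take part in setting the clock to the light cycle. Zebrafish organs and cells outside the eye and pineal gland respond to light directly. The question put to the data is how the level of each repressor differed between night and day in each tissue, and between tissues.

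Levels are FPKM (fragments per kilobase of gene, scaled to library size), which can be compared between genes because they are scaled to gene length. Whole reads behind the FPKM values could be recovered from their steps, and 95% exact intervals on ratios of libraries come from these reads. The intervals cover counting error only, not differences between pools. Total reads ran from 7949224 (pineal night) to 15950820 (mixed night). The summed levels of tissue markers went with the labels. The summed level of 6 pineal genes was 6470 FPKM in pineal night and 5150 in pineal day, and at most 298 elsewhere. The summed level of 15 eye genes was 7110 FPKM in eye night and 8140 in eye day, and at most 809 elsewhere. Not every eye gene went with the labels, as those with the symbol RPE65 were higher in the pineal gland. The most abundant of them (ENSDARG00000007480) had 765 FPKM in pineal night and 567 in pineal day, against 316 in eye night and 48.8 in eye day.

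Of the 3 genes, per1a was higher in the night library of each tissue and per2 and cry1a were lower. The gene per1a had 11.3 FPKM in the pineal gland at night and 1.38 by day, 38.1 in the eye at night and 1.79 by day, and 5.18 in mixed tissue at night and 2.03 by day. All 3 night libraries were thus above all 3 day libraries, which held for 0.891% of 21325 genes tested (those reaching 1 FPKM in 2 libraries). The gene per2 had 9.33 FPKM in the pineal gland at night and 54.9 by day, 2.1 in the eye at night and 79.6 by day, and 7.16 in mixed tissue at night and 14.6 by day. The gene cry1a had 7.05 FPKM in the pineal gland at night and 95.4 by day, 5.78 in the eye at night and 93.0 by day, and 2.15 in mixed tissue at night and 21.5 by day. For per2 and cry1a all 3 night libraries were below all 3 day libraries, as for 0.9% of genes.

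**Figure D1:**
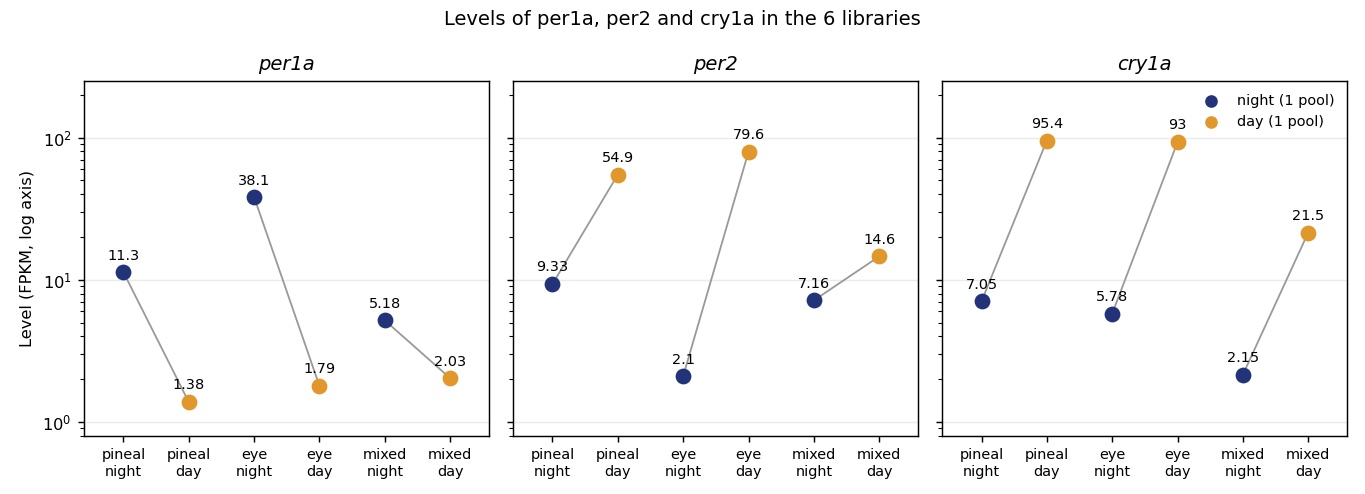
Levels of per1a, per2 and cry1a in the 6 libraries, in FPKM on a log axis. Each point is 1 pool, with night left of day, and grey lines join the libraries of a tissue. The 3 night points of per1a lie above its 3 day points, and those of per2 and cry1a lie below.

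Night and day could be tested only across tissues, with the 3 tissues standing in for replicates, in a limma model of log2(FPKM + 1) that has terms for both tissue and time. Genes were called at 2-fold or more and a p under 0.05 after Benjamini-Hochberg adjustment. The model called 0 of 21325 genes (0%). Before adjustment 1506 genes (7.06%) had a p under 0.05. None of the 3 repressors was called. cry1a had the lowest p of all genes, with a log2 value of -3.40 (SE 0.22, unadjusted p 9.44e-06, limma adjusted p 0.102), and was lower at night in 3 of 3 tissues. per1a had 2.4 (SE 0.51, limma adjusted p 0.679), higher at night in 3 of 3 tissues. per2 had -2.69 (SE 0.67, limma adjusted p 0.679), lower at night in 3 of 3 tissues. cry1a also had the smallest SE of the 3. With voom on the recovered reads, cry1a was called (log2 -3.74, adjusted p 0.0156). Limma also called it without mixed night or mixed day, at -3.69 in both fits. These are not separate results, since the 1 mixed library left adds nothing to the time value. Both fits rest on the pineal gland and the eye. It was not called under the other alternatives, where its limma adjusted p was 0.0525 with a pseudocount of 0.1, 0.0731 with quantile normalization, 0.234 with median ratio scaling and 0.589 with no filter on low values. Without 1 of the pineal or eye libraries the limma adjusted p was 0.198 to 0.382.

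The size of the difference between night and day was closer between tissues for cry1a than for per1a and per2, by the values that follow. In these ratios of single pools, cry1a was 13.5-fold lower at night in the pineal gland (95% exact interval 11.7 to 15.7), 16.1-fold lower in the eye (14.2 to 18.3) and 10-fold lower in mixed tissue (8.24 to 12.2). The intervals of the pineal gland and the eye overlapped, as did those of the pineal gland and mixed tissue, and those of the eye and mixed tissue did not. Its ratios differed by 1.19 times between pineal gland and eye, 1.35 times between pineal gland and mixed tissue and 1.61 times between eye and mixed tissue. per2 was 5.89-fold lower at night in the pineal gland (5.31 to 6.54), 37.9-fold lower in the eye (32.3 to 44.8) and 2.05-fold lower in mixed tissue (1.86 to 2.26). Its 3 intervals did not overlap. Its ratios differed by 6.44 times between pineal gland and eye, 2.88 times between pineal gland and mixed tissue and 18.5 times between eye and mixed tissue. per1a was 8.20-fold higher at night in the pineal gland (6.58 to 10.3), 21.2-fold higher in the eye (18.2 to 25) and 2.54-fold higher in mixed tissue (2.15 to 3.01). These intervals did not overlap either, and the ratios differed by 2.59 times between pineal gland and eye, 3.22 times between pineal gland and mixed tissue and 8.35 times between eye and mixed tissue. For all 3 genes the eye had the largest ratio and mixed tissue the smallest, though for cry1a the interval of the pineal gland overlapped both others. Genes in general had the same order of spread. The middle 95% of log2 ratios, over genes with at least 5 FPKM, ran from -1.61 to 1.73 in the eye. It ran from -1.19 to 1.09 in the pineal gland and from -1.15 to 0.67 in mixed tissue. Whether night and day ratios differ between tissues beyond the spread of pools cannot be tested with 1 pool each.

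All 3 repressors passed a 2-fold difference in all 3 tissues, on plain FPKM ratios. Among 8528 genes whose higher library reached 5 FPKM in every tissue, 10 passed 2-fold with night higher in all 3 (0.117%) and 21 with night lower (0.246%). per2 in mixed tissue was close to the limit, with a log2 ratio of -1.03, and was under it with median ratio scaling, at -0.98, and on the log2(FPKM + 1) scale, at -0.94. Within a tissue, 6.92% of 11753 genes in the pineal gland, 13.4% of 12735 in the eye and 4.49% of 13055 in mixed tissue passed 2-fold in either direction. The shares with night higher were 3.05% in the pineal gland, 7.13% in the eye and 1.15% in mixed tissue. The shares with night lower were 3.87% in the pineal gland, 6.27% in the eye and 3.34% in mixed tissue. With median ratio scaling 54.1% of the genes past 2-fold in the pineal gland were higher at night, against 44.0% with FPKM as deposited. In the eye the share was 44.5% with that scaling, against 53.2% with FPKM as deposited. Ranked by the size of the difference in either direction, cry1a was number 35 in the pineal gland, 67 in the eye and 35 in mixed tissue. per2 was number 81 in the pineal gland, 36 in the eye and 551 in mixed tissue, and per1a was number 55 in the pineal gland, 49 in the eye and 305 in mixed tissue.

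**Figure D2:**
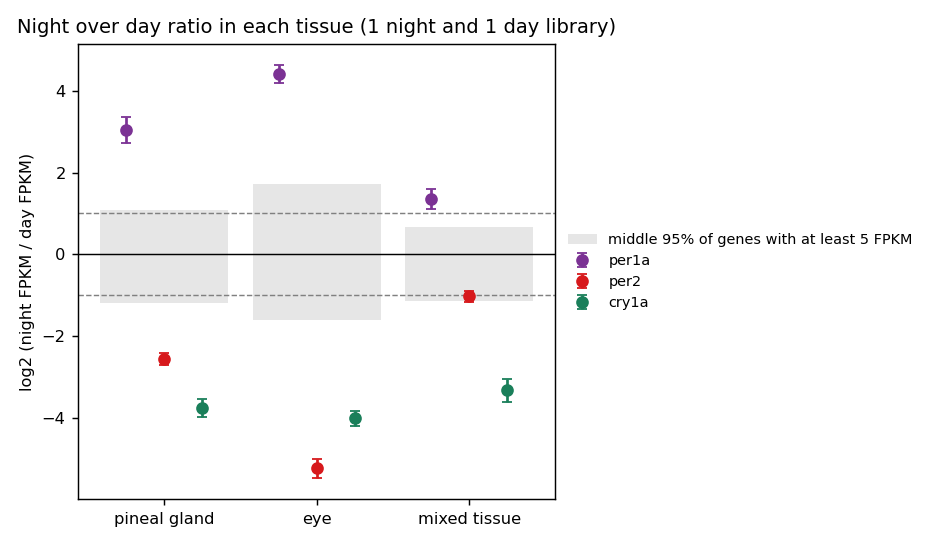
Log2 of night over day FPKM for the 3 genes in each tissue. Points are ratios of 1 night and 1 day library, bars are 95% exact intervals for counting error, dashed lines mark 2-fold, and grey areas hold the middle 95% of genes with at least 5 FPKM. All points but per2 in mixed tissue (-1.03) lie outside the grey areas.

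Levels of marker genes of other cell types differed between the pools too. In the eye, 20 of 20 brain marker genes were higher at night, with a summed level of 921 FPKM at night and 92.1 by day. Of these genes 2 were under 1 FPKM in eye night and 11 in eye day. The sum was 326 FPKM in pineal night and 355 in pineal day, and 370 in mixed night and 457 in mixed day. The brain genes were unlike in size of difference. epd (ENSDARG00000103498) alone held 574 FPKM of the sum in eye night and 1.57 in eye day. GABRA6 (ENSDARG00000075058) had 69.2 FPKM in eye night and 55.4 in eye day, against 1.99 in mixed night and 1.42 in mixed day. The 13 lens genes were all lower in eye night, at a summed 1470 FPKM against 3150 in eye day. Photoreceptor genes (18) summed to 9710 FPKM in eye night and 10300 in eye day, and to 9800 in pineal night and 8890 in pineal day. In the pineal gland 0 of 10 erythrocyte genes were higher at night (180 FPKM summed at night and 355 by day). The eye also had 0 of 10 higher at night (134 FPKM summed at night and 232 by day). Mixed tissue had 2 of 10 (236 at night and 288 by day). Over all genes the median log2 ratio of night over day was -0.04 in the pineal gland, 0.11 in the eye and 0.03 in mixed tissue. The part of these cells in the values of the 3 repressors was not tested. In such bulk pools fewer cells of a type and less RNA per cell cannot be told apart. Ratios of eye night to eye day for per1a (21.2-fold higher) and per2 (37.9-fold lower) went in opposite directions, as did those of the brain and lens genes. Whether these are linked was not tested.

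Ratios of these genes within a library do not depend on library scaling. per1a stood at 1.21 times the level of per2 in pineal night and at 0.0251 times in pineal day. In the eye this ratio was 18.2 at night and 0.0225 by day, an 806-fold difference. In mixed tissue it was 0.724 at night and 0.139 by day, so per2 was the more abundant of the pair at both times there. Against cry1a, per1a was 1.61 times as high in pineal night, 6.60 times in eye night and 2.41 times in mixed night. By day per1a was 0.0145 times cry1a in the pineal gland, 0.0193 times in the eye and 0.0947 times in mixed tissue. per2 was 1.32 times cry1a in pineal night and 0.576 times in pineal day, 0.363 times in eye night and 0.856 times in eye day, and 3.33 times in mixed night and 0.682 times in mixed day. The ratio of per2 to cry1a was thus higher at night in the pineal gland and mixed tissue and lower at night in the eye.

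Between tissues, cry1a was called higher in both light-sensing organs than in mixed tissue. With all libraries, the model values of per1a and per2, averaged over night and day, were above 0 in both organs but not called. These genes were not above mixed tissue at both times. By day per1a was at 0.679 times mixed tissue in the pineal gland and 0.881 times in the eye, the latter within counting error. At night per2 in the eye was at 0.293 times mixed tissue. In the limma model cry1a exceeded its mixed-tissue level by a log2 value of 1.73 in the pineal gland (SE 0.27, limma adjusted p 0.00293) and of 1.58 in the eye (SE 0.27, limma adjusted p 0.00376). Calls were common in these comparisons. In pineal against mixed 46.5% of genes were called, 16.4% of genes as higher and 30.1% as lower, and in eye against mixed 49.2% were called, 20.7% as higher and 28.5% as lower. The comparisons share the mixed libraries. Pineal gland and eye differed in cry1a by 0.14 (SE 0.27, limma adjusted p 0.736), where 23.4% of genes were called (9.25% higher and 14.1% lower in the pineal gland). Under quantile normalization the median gene stood at 0.06 in pineal against mixed, where FPKM as deposited gave -0.28, and at 0.02 in eye against mixed, where it had been -0.19. cry1a was still called, at 1.97 in the pineal gland and 1.74 in the eye. The split of calls then changed to 52.0% higher in the pineal gland, against 35.2% from FPKM as deposited. Without mixed night, 6596 genes were called in pineal against mixed, against 9920 with all libraries, and cry1a was among them (2.15, limma adjusted p 0.00483).

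per1a and per2 were not called between any tissues with all 6 libraries. per1a had a log2 value of 0.32 in pineal against mixed (SE 0.63, limma adjusted p 0.674), 1.27 in eye against mixed (SE 0.63, adjusted p 0.124) and -0.95 in pineal against eye (SE 0.63, adjusted p 0.309). per2 had 1.09 in pineal against mixed (SE 0.83, limma adjusted p 0.291), 0.48 in eye against mixed (SE 0.83, adjusted p 0.628) and 0.60 in pineal against eye (SE 0.83, adjusted p 0.634). These tests average over night and day, and the differences at each time were unlike. Leaving out a library of a compared tissue leaves that tissue with 1 library, which is assumed to vary like the other groups, and the tissue is then compared by its level at the remaining time. Without eye day per1a was called higher in eye than mixed tissue (2.33, limma adjusted p 0.01) and lower in pineal gland than eye (-2.0, adjusted p 0.0356), and per2 higher in pineal gland than eye (2.11, adjusted p 0.0361). Without eye night per2 was called higher in eye than mixed tissue (1.99, limma adjusted p 0.0205), and without mixed day per1a was (2.3, adjusted p 0.0173). per2 was called in pineal against mixed without eye day, eye night or mixed night. Without eye day or eye night its value was 1.09, as with all 6 libraries. The eye then no longer entered the spread of this gene, which came from the pineal gland and mixed tissue. Without mixed night the value was 2.4.

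The order of tissues differed between night and day for per1a and per2. For cry1a, pineal gland and eye were both above mixed tissue at each time. At night per1a in the eye was 7.36 times its level in mixed tissue (95% exact interval 6.70 to 8.10), and in the pineal gland 2.19 times (1.94 to 2.47). By day its 3 levels lay between 1.38 and 2.03 FPKM, and eye against mixed tissue was within counting error (ratio 0.881, 0.713 to 1.09). per2 had the opposite arrangement. By day the eye held 5.44 times the level of mixed tissue (5.12 to 5.78) and the pineal gland 3.75 times (3.51 to 4.00). At night the eye held the lowest per2 of the 3 tissues, at 0.293 times mixed tissue (0.244 to 0.35), while the pineal gland was at 1.30 times (1.15 to 1.48). The eye thus had both the highest per2 level of the 6 libraries, by day, and the lowest, at night. cry1a by day differed between pineal gland and eye by no more than counting error (ratio 1.03, 0.982 to 1.07), and each was over 4 times mixed tissue, at 4.44 times (4.15 to 4.75) in the pineal gland and 4.33 times (4.05 to 4.62) in the eye. At night cry1a in the pineal gland was 3.28 times mixed tissue (2.59 to 4.17) and in the eye 2.69 times (2.15 to 3.38). The pineal gland was then at 1.22 times the eye (1.01 to 1.48).

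The other period genes did not share one pattern. PER3 (ENSDARG00000010519), another period gene, was lower at night in each tissue, with 3.23 FPKM in pineal night and 12.5 in pineal day, 8.31 in eye night and 22.1 in eye day, and 2.3 in mixed night and 9.09 in mixed day. Its limma value was -1.53 (SE 0.16, adjusted p 0.269). The other gene with the symbol PER1 (ENSDARG00000012499) had 8.06 FPKM in pineal night and 9.61 in pineal day, 21.8 in eye night and 6.90 in eye day, and 7.17 in mixed night and 9.75 in mixed day. It was thus higher at night in the eye alone of the 3 tissues, unlike per1a. How reads that fit more than 1 copy of a duplicated gene were counted, and whether strand was used, is not stated here, so values of duplicated genes are uncertain to that extent. per1a made up 35.5% of the summed FPKM of the 4 period genes in pineal night and 1.76% in pineal day. In the eye its share was 54.2% at night and 1.62% by day, and in mixed tissue 23.8% at night and 5.73% by day. The share of per2 was 29.2% in pineal night and 70.0% in pineal day, 2.99% in eye night and 72.1% in eye day, and 32.8% in mixed night and 41.2% in mixed day.

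The sum over the 4 period genes was lower at night in each tissue. It was 31.9 FPKM in pineal night and 78.4 in pineal day, 70.3 in eye night and 110.4 in eye day, and 21.8 in mixed night and 35.5 in mixed day. Among the cryptochromes, cry1a was a minor part at night and a larger one by day. It held 3.58% of the summed FPKM of 6 cryptochrome genes in pineal night and 14.0% in pineal day, 4.22% in eye night and 14.6% in eye day, and 2.51% in mixed night and 12.1% in mixed day. The most abundant cryptochrome by day in each tissue was cry3a (ENSDARG00000069074), with 145 FPKM in pineal night and 399 in pineal day, and 54.2 in eye night and 361 in eye day. In eye night CRY2 (ENSDARG00000102403) was just above it, with 56.0 FPKM, against 17.9 in eye day.

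**Figure D3:**
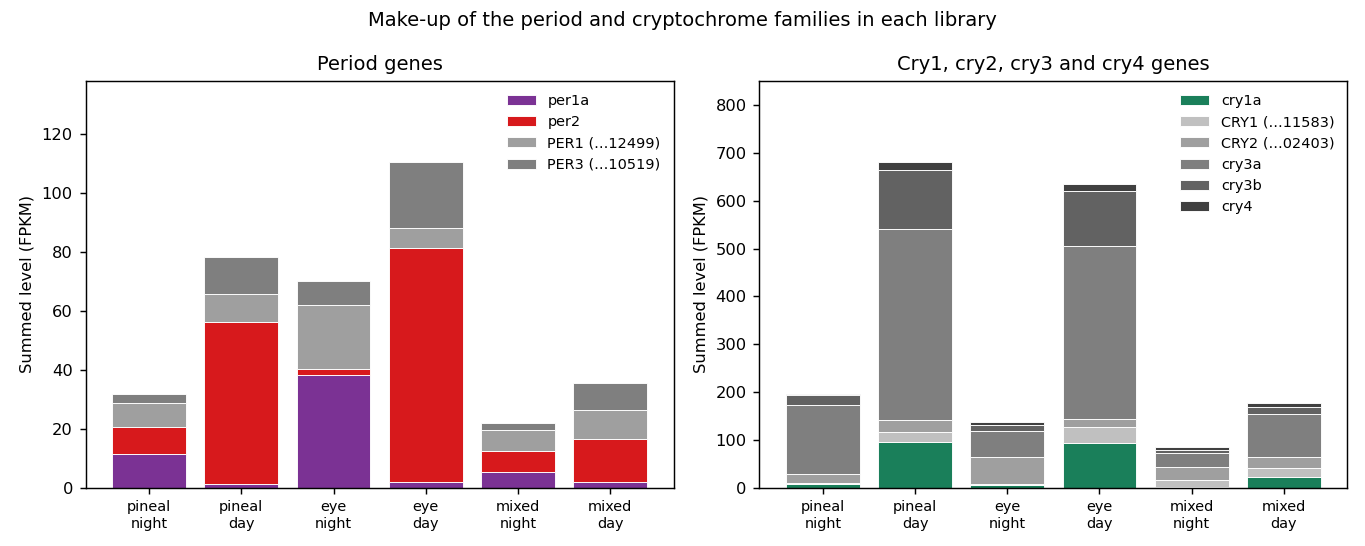
Summed FPKM of the 4 period genes (left) and 6 cryptochrome genes (right) in each library, with night left of day. Colours mark per1a, per2 and cry1a and greys the other genes. The red part (per2) is the largest of the period bars in pineal day (70.0%), eye day (72.1%) and mixed day (41.2%). The purple part (per1a) is the largest in eye night (54.2%) and pineal night (35.5%).

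The 10 other genes of the per, cry and photolyase family were mostly lower at night. Counting those that reached 5 FPKM, 0 of 9 passed 2-fold with night higher and 7 with night lower in the pineal gland. In the eye 2 of 8 were higher and 5 lower, and in mixed tissue 0 of 10 were higher and 3 lower. Their median log2 ratio was -1.52 in the pineal gland, -1.28 in the eye and -0.47 in mixed tissue, beside -0.04, 0.11 and 0.03 for all genes in those tissues. Over all genes the shares past 2-fold with night higher were 3.05% in the pineal gland, 7.13% in the eye and 1.15% in mixed tissue. Those with night lower were 3.87%, 6.27% and 3.34% in the same order. The counts of the lists below stand beside the same shares. The other gene with the symbol CRY1 (ENSDARG00000011583) was like cry1a in the pineal gland and the eye, with 1.83 FPKM in pineal night and 21.6 in pineal day, and 1.80 in eye night and 33.1 in eye day. In mixed tissue it had 14.4 FPKM at night and 20.3 by day, a log2 ratio of -0.49 where cry1a had -3.32. cry3b (ENSDARG00000091131) had log2 ratios of -2.63 in the pineal gland, -3.17 in the eye and -1.46 in mixed tissue. cry4 (ENSDARG00000011890) was at -2.19 in the pineal gland, -1.15 in the eye and -0.41 in mixed tissue. The photolyases, enzymes that mend ultraviolet damage in DNA with light, had their largest differences in the pineal gland. cry5 (ENSDARG00000019498), the 6-4 photolyase of zebrafish, was at 0.266 FPKM in pineal night and 3.64 in pineal day, cry-dash (ENSDARG00000002396) at 3.63 in pineal night and 10.4 in pineal day, and cpdp (ENSDARG00000099519) at 7.95 in pineal night and 17.1 in pineal day.

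Genes known or proposed to be induced by light in fish did not all follow per2 and cry1a. Of 13 such genes, which overlap the family above and the D-box factors below, 1 of 10 passed 2-fold with night higher and 6 with night lower in the pineal gland. In the eye 1 of 9 was higher and 5 lower, and in mixed tissue 0 of 13 were higher and 1 lower. Their median log2 ratios were -1.10 in the pineal gland, -1.02 in the eye and -0.01 in mixed tissue. Limma called 0 of the 13, with a median of -0.42 beside 0.01 for all genes. BHLHE40 (ENSDARG00000004060), a repressor at E-boxes, was at -4.58 in the pineal gland, -0.72 in the eye and -1.24 in mixed tissue. HMOX1 (ENSDARG00000027529), a heme oxygenase, was at -0.61 in the pineal gland, -2.17 in the eye and -0.29 in mixed tissue. Unlike these, tefa (ENSDARG00000039117), also among the D-box factors, was higher at night in each tissue. It was at 0.18 in the pineal gland, 1.13 in the eye and 0.41 in mixed tissue. The gene past 2-fold with night higher in the pineal gland was FOS (ENSDARG00000031683), at 2.14. FOS was lower at night in the eye, at -2.07, and in mixed tissue, at -0.67.

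Of the activators that these repressors block (CLOCK, npas2 and BMAL genes), 0 of 5 passed 2-fold with night higher and 3 with night lower in the pineal gland, 0 of 5 higher and 3 lower in the eye, and 0 of 4 in either direction in mixed tissue. npas2 (ENSDARG00000016536), which can take the place of CLOCK, was at -2.10 in the pineal gland, -4.39 in the eye and -0.95 in mixed tissue, and BMAL1 (ENSDARG00000035732) at -1.97, -3.36 and -0.80 in the same order. The receptor loop acts on the BMAL genes, with nr1d receptors as repressors and ror receptors as activators. Of this list 4 of 10 genes passed 2-fold with night higher and 4 with night lower in the pineal gland. In the eye 3 of 10 were higher and 3 lower, and in mixed tissue 3 of 8 were higher and 3 lower. The largest values of the limma time term in each direction were those of nr1d4b (ENSDARG00000059370), at 5.89, and rorcb (ENSDARG00000017780), at -4.2. Within tissues, the log2 ratios of nr1d4b were 7.05 in the pineal gland, 8.61 in the eye and 5.23 in mixed tissue. Those of rorcb were -4.62, -7.47 and -2.59 in the same order. As for the repressors per1a, per2 and cry1a, the eye had the largest ratio and mixed tissue the smallest for npas2, this BMAL1 gene, nr1d4b and rorcb. These genes were named for the size of their time values, and other clock genes had another order. PER3 was at -1.95 in the pineal gland, -1.41 in the eye and -1.99 in mixed tissue, and BHLHE40 at -4.58, -0.72 and -1.24. Ratios of all genes also spread most in the eye and least in mixed tissue. nr1d4a (ENSDARG00000031161) was above nr1d4b in the pineal gland, at 7.74, with 8.29 in the eye and 3.78 in mixed tissue.

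The D-box factors bind the element through which light acts on per2 in zebrafish. Of these 2 of 9 passed 2-fold with night higher and 3 with night lower in the pineal gland. In the eye 4 of 9 were higher and 4 lower, and in mixed tissue 2 of 9 were higher and 3 lower. dbpb (ENSDARG00000057652), an activator, was at 3.96 in the pineal gland, 5.54 in the eye and 2.52 in mixed tissue, and nfil3-5 (ENSDARG00000094965), of a family of D-box repressors, at -5.19, -7.16 and -1.93. Of the 4 other E-box repressors, 3 were past 2-fold with night higher in the pineal gland and 3 in the eye, with 1 lower (BHLHE40) in the pineal gland. In mixed tissue 1 of 4 was higher and 1 lower (BHLHE40). ciartb (ENSDARG00000088171), whose mammalian counterpart CIART binds BMAL1, was at 2.53 in the pineal gland, 2.77 in the eye and 1.00 in mixed tissue, and BHLHE41 (ENSDARG00000041691) at 1.91, 2.86 and 0.50. Among the kinases, phosphatases and ubiquitin enzymes that act on PER and CRY proteins, 1 of 15 passed 2-fold with night higher and 1 with night lower in the pineal gland. In the eye 1 of 16 was higher and 3 lower, and in mixed tissue 0 of 12 were higher and 1 lower. USP2 (ENSDARG00000020107), a ubiquitin protease whose mammalian counterpart acts on PER and CRY proteins, had 72.4 FPKM in pineal night and 72.2 in pineal day, 19.0 in eye night and 58.5 in eye day, and a log2 ratio of -1.06 in mixed tissue. Over all these clock genes without the 3 repressors, limma called 0 of 55, and 9 higher and 20 lower at night had an unadjusted p under 0.05. Of all 21325 genes tested, 649 higher and 857 lower at night had an unadjusted limma p under 0.05.

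**Figure D4:**
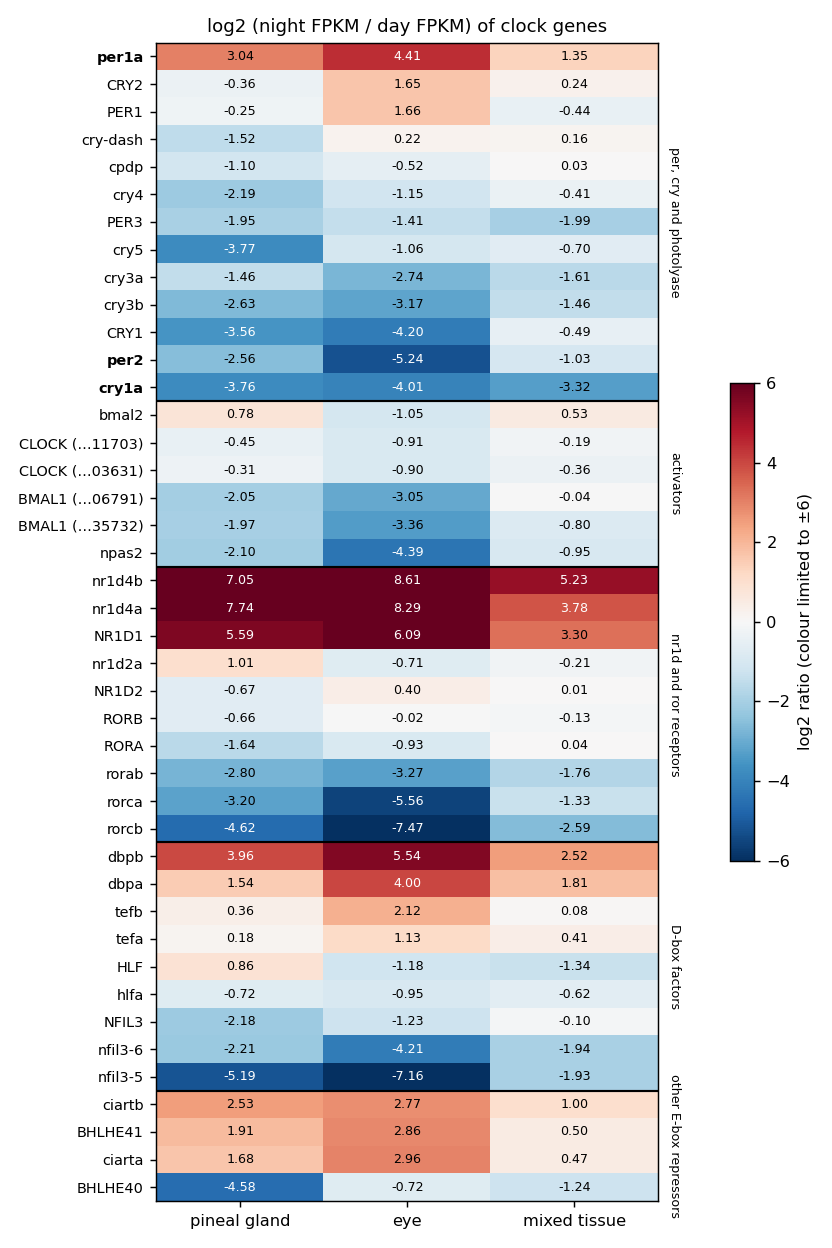
Log2 of night over day FPKM (1 library each) of clock genes with at least 5 FPKM in any library, in the 3 tissues. Red is higher and blue lower at night, genes are grouped by role, and per1a, per2 and cry1a are in bold. per1a (3.04, 4.41 and 1.35) has the largest positive values of its family, and cry1a (-3.76, -4.01 and -3.32) is lower at night in all 3 tissues.

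Genes with the pattern most like each repressor were sought among 14599 named genes by the distance between log2(FPKM + 1) values over the 6 libraries, each centred on its own mean. This is a description over 6 pools that differ in tissue as well as time. Nearest to per1a were ciartb (distance 0.91) and cipca (ENSDARG00000075397, 0.96), whose mammalian counterpart CIPC blocks CLOCK. cipca had 9.11 FPKM in pineal night and 2.77 in pineal day, 27.9 in eye night and 2.75 in eye day, and 6.17 in mixed night and 2.88 in mixed day. Next were egr4 (ENSDARG00000077799, 0.99), of a family of immediate early transcription factors, BHLHE41 (1.09) and GPR6 (ENSDARG00000052400, 1.57), a G protein-coupled receptor. All 5 had their highest level in eye night, as per1a did, which the choice by likeness largely set in advance.

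Nearest to per2 was nfil3-6 (ENSDARG00000087188, distance 0.98), of the D-box repressor family, with 59.6 FPKM in pineal night and 276 in pineal day, 15.0 in eye night and 278 in eye day, and 20.5 in mixed night and 78.5 in mixed day. It was followed by BMAL1 (ENSDARG00000035732, 1.48), lonrf1 (ENSDARG00000078567, 1.65), rorca (ENSDARG00000057231, 1.66) and FKBP5 (ENSDARG00000028396, 1.69), a co-chaperone of the glucocorticoid receptor. Nearest to cry1a were cry3b (1.54), nfil3-6 (1.56), rorab (ENSDARG00000001910, 1.84), rorca (1.95) and rorcb (2.01). cry1a was number 10 in likeness to per2, and per2 number 7 in likeness to cry1a (distance 2.02). per1a was number 14043 in likeness to per2, at a distance of 7.22.

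**Figure D5:**
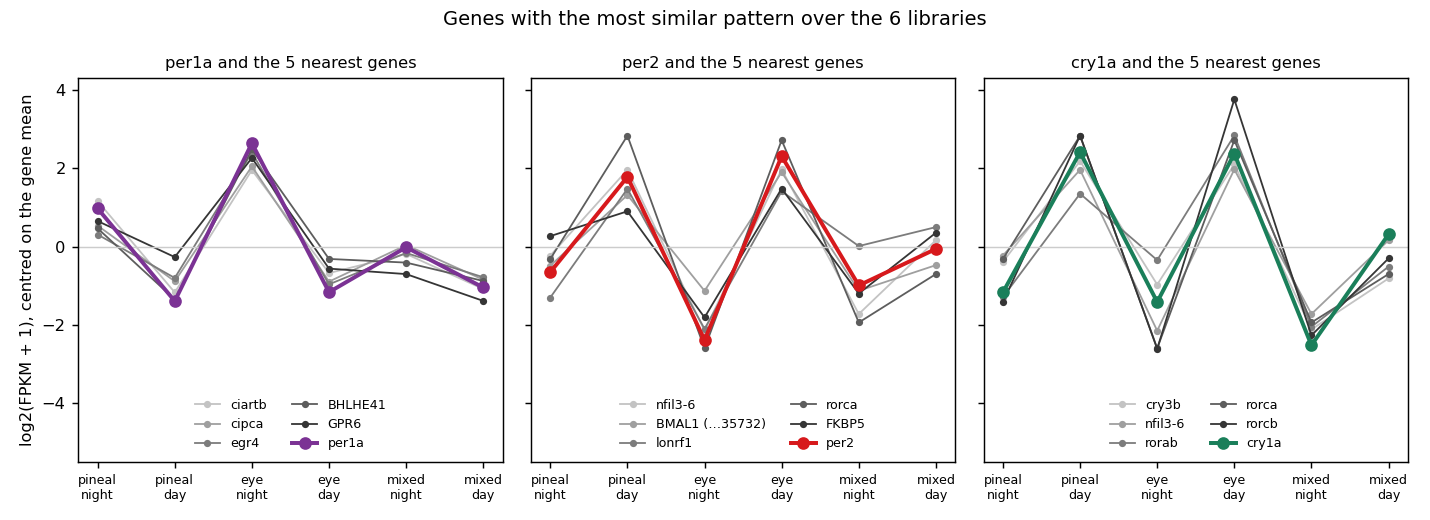
Pattern of per1a, per2 and cry1a (coloured) and of the 5 genes nearest to each (grey) over the 6 libraries, as log2(FPKM + 1) centred on the mean of each gene. Night is left of day in each tissue. The per1a group, chosen by likeness over these same libraries, has its highest point in eye night. The nearest gene to per2, nfil3-6, lies at a distance of 0.98.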

How the data were processed

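Poly-A RNA of 6 pooled libraries was measured. Per the submitters' processing notes, FastQC, STAR 2.3.0e, featureCounts of Subread, DESeq2 and danRer10 were used, while no annotation release is named. The authors deposited FPKM values per gene, and 3 columns of their means were not used. For all 27233 genes above 0, reads were recovered as whole multiples of 1 read (tolerance 0.02 read), which rebuilt 99.87% of values to within 1e-06. The units could be reads or fragments.

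The tests used 1 two-sided limma model (version 3.58.1, R 4.3.3) of tissue and time on log2(FPKM + 1), with a mean trend (2 residual degrees of freedom, 3.46 prior), over the 21325 genes with at least 1 FPKM in 2 libraries. Its p-values set each tissue or time effect against how far the 6 pools depart from effects that add up. That departure can hold technical spread and also night and day differences that are unlike between tissues, which cannot be told apart here. Within a tissue, plain FPKM ratios were used with no test, and genes were counted at 2-fold where the higher library reached 5 FPKM. Self-tests on simulated data used the means and spread of the genes measured here, and ran after the main fits. Alternatives were a pseudocount of 0.1, no filter, quantile and median ratio scaling, each library left out, and voom. Symbols, some shared by several genes, matched 26269 of 32105 IDs. The 3 genes and all lists were chosen with earlier results of these data known. Named genes were the 3 repressors, their family, up to 2 with the largest rise and 2 with the largest fall per clock list, and the 5 nearest in pattern. FOS was named besides, for its count in the pineal gland.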

Additional observations from a re-analysis of the deposited data

Results flagged for a closer look

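No repressor of the 3 went opposite ways in pineal gland and eye, but a pair of family members did. PER1 (ENSDARG00000012499) had a night over day ratio of 0.839 in the pineal gland and 3.15 in the eye. CRY2 (ENSDARG00000102403) had a ratio of 0.778 in the pineal gland and 3.13 in the eye. The 95% exact intervals of counting error lay on opposite sides of 1. In the pineal gland both differences were small, with log2 ratios of -0.25 for PER1 and -0.36 for CRY2. Over genes with at least 5 FPKM there, the lower and upper quartiles of the log2 ratio were -0.34 and 0.24. The difference between the tissues was not tested, since each tissue had 1 night and 1 day pool. All 20 brain marker genes were higher in eye night than in eye day, and the part of this in these values was not tested.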

How the results depend on the processing

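The time test already sets night against day within each tissue, through its tissue term. No paired analysis was possible because, beyond that, the labels give no replicate numbers to pair libraries by. Under every scaling, pseudocount and filter tried, the time values of the 3 repressors kept their direction, and cry1a kept its calls against mixed tissue, also without each library. With voom 11 genes were called for time (2183 at unadjusted p under 0.05), cry1a among them (-3.74). Leaving out 1 library gave 0 to 4 calls for time, 6596 to 10099 for pineal against mixed, 7258 to 10665 for eye against mixed and 3474 to 5057 for pineal against eye.

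Leaving out 1 library gave log2 values for time of -3.69 to -3.21 for cry1a, 1.70 to 3.09 for per1a and -3.57 to -1.69 for per2. For pineal against mixed they were 1.30 to 2.15 for cry1a, -0.71 to 1.36 for per1a (below 0 without mixed night) and -0.23 to 2.4 for per2 (below 0 without mixed day). For eye against mixed they were 1.16 to 2.01 for cry1a, 0.22 to 2.33 for per1a and -1.02 to 1.99 for per2 (below 0 without eye day or, at -0.83, mixed day). For pineal against eye they were -0.15 to 0.43 for cry1a, -2.0 to 0.11 for per1a and -0.90 to 2.11 for per2, and each changed sign without eye night. The test averages over times at which the tissues differed unequally.

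Within tissues, quantile normalization gave log2 ratios of -2.38 for per2 and -3.50 for cry1a in the pineal gland and 1.72 for per1a in mixed tissue. On the log2(FPKM + 1) scale, chosen after seeing the data, per1a was at 2.37 in the pineal gland, 3.81 in the eye and 1.03 in mixed tissue. On that scale per2 was at -4.70 in the eye, and cry1a at -3.79 in the eye and -2.84 in mixed tissue. Depth limits per1a by day most, with 94 reads in the pineal gland.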
